A study of Mus musculus with 10 samples.

Results

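The 26S proteasome is the ATP-dependent protease that degrades ubiquitinated proteins. Its 20S core is a barrel of alpha rings, which gate the entrance, and beta rings, which hold the proteolytic sites. The 19S regulatory particle caps the barrel: a ring of ATPases unfolds the substrate, and a lid with a ubiquitin receptor beside it captures the substrate and removes its ubiquitin. In cells exposed to interferon, inducible beta subunits can replace the constitutive catalytic ones, and in neurons the proteasome is known for its part in synaptic protein turnover. Most subunits enter the particle in equal number, which gives a common scale for setting their levels side by side.

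The members were all genes in the count files whose symbol is Psm, a letter from a to g and digits, and each gene was represented by the transcript that drew the most RNAseq reads on average. This gave 37 genes of 13189 matched to the annotation. Of these, 29 passed the filter for measured transcripts and 8 did not. To be measured, a transcript needed 2 or more cultures in which RNAseq RPKM (reads of all regions, scaled by transcript length and library size) and RF RPKM (the same for ribosome footprints on the CDS) each reached 10. Whole-series counts of measured transcripts were 7262, of 4370 genes. Psmc3ip, whose symbol has letters after the digits, is no proteasome subunit and was left out.

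The libraries came from cortical cells of P0 FVB mouse pups, cultured for 7 days in vitro as a mixture of neurons and glia. Untreated cultures 1, 2 and 3 were compared with cultures 4 and 5, which were depolarized with 55 mM KCl for 3 h. All cultures received cycloheximide, which arrests ribosomes, at 100 ug/ml for 7 min, and no culture carried a genetic change. From each lysate a portion was taken for RNAseq and the remainder for ribosome footprinting (RF), so that translation efficiency (TE), the RF level over the RNAseq level, could be taken within a culture. The labels number the cultures without saying whether they came from separate litters, and p-values then measure only the spread between these cultures.

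RNAseq libraries held 3056286 to 3629959 reads and RF libraries 1463654 to 7719915. The measured members had a median of 237 to 263 RNAseq reads per library, and a median of 184 to 966 CDS footprints. The lowest RF depths were those of untreated culture 3 and KCl culture 4. Every marker of neurons (8 of 8), astrocytes (7 of 7), microglia (7 of 7) and the oligodendrocyte lineage (6 of 6) was detected in all RNAseq libraries. Summed astrocyte markers were at 13116 to 13898 normalized CPM (reads per library size, scaled by the TMM method) in untreated and 11086 to 11334 in KCl cultures, and summed microglial markers at 258 to 262 and 220 to 239. Oligodendrocyte-lineage markers summed to 1540 to 1664 and 1476 to 1485, those of fibroblasts and endothelium (3 of 4 listed) to 398 to 470 and 323 to 362, and neuronal markers overlapped, at 466 to 680 and 593 to 609. In the tests described below 3 of 7 astrocyte markers were lower in RNAseq (15.1% of all transcripts were), 4 of 7 higher in RF (20.8%) and 2 of 7 higher in TE (1.53%). Fewer cells of a type and less RNA per cell cannot be told apart in such bulk libraries, and the part of these shifts in the results was not tested.

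The region around the start codon is shown for 6 measured members. These are the 3 with the highest and the 3 with the lowest TE in untreated cultures, on RNAseq reads of all regions. Whether this region bears on TE was not tested. Each line holds 12 bases of 5′UTR, the start codon in capitals and the next 9 bases, 5′ to 3′ on the mRNA strand, from the GENCODE transcripts for GRCm38.
Psmc6: cggcttctcatcATGgcggaccct
Psma2: ttccgggtaaagATGgcagagcgc
Psmb1: gagttaggcgcgATGctttccact
Psma7: gcgtccgcagtgATGagctacgac
Psmg3: aagaacgggaccATGgaagacaaa
Psmg4: gtggctggcgggATGgaggagtct
The 6 transcripts span chr14:45329788-45349705 (Psmc6, plus strand), chr13:14613240-14627636 (Psma2, plus), chr17:15475021-15498298 (Psmb1, minus), chr2:180036374-180042433 (Psma7, minus), chr5:139823592-139826885 (Psmg3, minus) and chr13:34162964-34178168 (Psmg4, plus). All 6 have a purine 3 bases before the ATG, as did 27 of the 29 measured members, and 4 of the 6 have G directly after the ATG, as did 16 of 29. These are the positions of the Kozak context, and both the highest TE, of Psmc6, and the second lowest, of Psmg3, stood beside A at the first and G at the second position. The 11 members with that combination ranged in TE from 0.604 to 9.65. Members with G after the start codon had a median TE of 1.41 (n = 16) and those without it 2.34 (n = 13), and with RNAseq on the CDS the medians were 1.99 and 2.17. An ATG upstream of the start was found in 10 of 29 members, whose median TE was 1.40 against 2.31 in the other 19. The order turned when RNAseq was also taken on the CDS (2.26 against 2.11).

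In untreated cultures most proteasome mRNAs lay above the overall median in RNAseq and RF, and about as many above as below it in TE. Median RNAseq RPKM over the 29 measured members was 45.2, against 21.5 over all measured transcripts, and 23 of 29 lay above that overall median. For RF the medians were 103 and 37.5, again with 23 of 29 above. Median TE was 1.89 for the members and 1.69 for all, with 15 of 29 above. When RNAseq was restricted to CDS reads over CDS length, the medians of the ratio were 2.11 and 2.13. The members sat at a median percentile of 78.3 for RNAseq, 83.4 for RF and 55.9 for TE among all measured transcripts. The 8 unmeasured members are not in these medians. Each member is the transcript of its gene with the most RNAseq reads, while the background holds all 7262 measured transcripts of 4370 genes. The background thus includes transcripts with fewer reads than another of the same gene, and the part of this in the contrast was not tested.

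**Figure D1:**
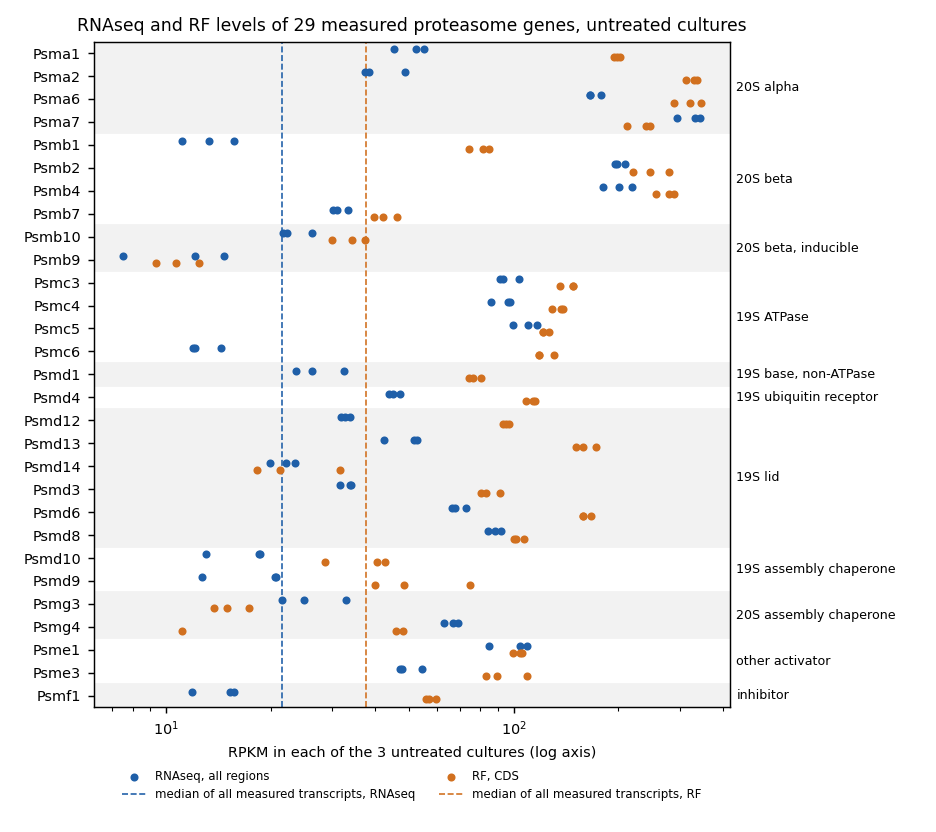
RPKM of the 29 measured members in each of the 3 untreated cultures on a log axis, grouped by role, with RNAseq (all regions) in blue and RF (CDS) in orange. Dashed lines mark the medians of all 7262 measured transcripts (21.5 and 37.5), and RF points of the 4 ATPases fall close together while the RNAseq points of Psmc6 lie far to the left of those of Psmc3, Psmc4 and Psmc5.

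At the top of the RNAseq order stood the core subunits Psma7, Psmb2 and Psmb4. The alpha subunit Psma7 had 294, 332 and 344 RPKM in untreated cultures 1, 2 and 3. Psmb2, a non-catalytic beta subunit, had 198, 195 and 208 RPKM. Psmb4, another non-catalytic beta subunit, had 218, 201 and 181. Psma7 was above both in every culture, while Psmb2 and Psmb4 overlapped. At the lower end the inducible catalytic subunit Psmb9 had 7.49, 14.7 and 12.1 RPKM, the ATPase Psmc6 11.9, 12.1 and 14.4, and the beta subunit Psmb1 13.3, 11.1 and 15.6. These 3 lowest members overlapped with one another.

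The RF order was a different one. The alpha subunits Psma2 (314, 337 and 329 RPKM) and Psma6 (322, 346 and 289) were highest and overlapped, followed by Psmb4 (289, 257 and 280), which lay below both. Psmb9 was lowest (12.4, 10.7 and 9.36), then the 20S assembly chaperone Psmg3 (17.3, 13.8 and 14.9) and the lid deubiquitinase Psmd14 (21.3, 18.2 and 31.6). In untreated culture 3 the Psmg3 value rests on 8 footprints and that of Psmd14 on 43.

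Among subunits of the constitutive particle the footprint levels lay closer together than the mRNA levels. Over the 20 measured 20S and 19S subunits, without chaperones, activators, inhibitor and inducible forms, the SD of log2 RPKM across subunits was 1.30 for RNAseq and 0.952 for RF (means of the untreated cultures). In single cultures, KCl included, it was 1.26 to 1.34 for RNAseq and 0.886 to 1.08 for RF, so that RF had the smaller spread in all 5 cultures. With RNAseq on CDS reads alone the SD over these subunits was 1.60. Across all measured transcripts it was 1.28 for RNAseq, 1.40 for RF and 1.55 for RNAseq on the CDS, so that the order of the 2 assays in this background turned with the RNAseq region, which it did not for the subunits. Subunits are not replicates, and this spread is a description without a test.

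In the ATPase ring the contrast came from 1 member, Psmc6. Psmc3, Psmc4, Psmc5 and Psmc6, which occupy 1 position each in the ring, had untreated RF means of 144 ± 6.93, 135 ± 4.93, 123 ± 2.77 and 122 ± 6.85 RPKM (SD, n = 3 for each). The highest of the 4 was 1.18 times the lowest. Their RNAseq means were 95.8 ± 6.62, 93.2 ± 6.07, 109 ± 8.82 and 12.8 ± 1.36 RPKM, with the highest 8.50 times the lowest. Without Psmc6 the RNAseq means of the ring lay between 93.2 and 109 and the RF means between 123 and 144. The other 3 ATPases thus showed no such contrast between the assays. The fifth listed ATPase, Psmc1, was not measured, and the remaining ATPase gene, Psmc2, was not analysed here.

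In the alpha ring RF ranged 1.65-fold over the 4 measured members, from Psma1 at 198 ± 4.06 to Psma2 at 327 ± 11.7 RPKM. RNAseq on reads of all regions ranged 7.81-fold, from Psma2 at 41.4 ± 6.29 to Psma7 at 324 ± 26.1. The low end changed with the RNAseq region. On CDS reads the untreated means ran from 53.4 RPKM for Psma1 over 126 for Psma2 to 342 for Psma7. The beta ring was more uneven in both assays. RF ran from 42.5 ± 3.20 for Psmb7, the catalytic subunit with trypsin-like activity, over 80.2 ± 5.57 for Psmb1 and 249 ± 29.6 for Psmb2 to 275 ± 16.5 RPKM for Psmb4, a 6.47-fold range against 15.0-fold in RNAseq. In the lid RF ranged 6.80-fold over 6 members and RNAseq 4.04-fold, or 20.1-fold on CDS reads. The RF range was set by Psmd14 at its lower end (23.7 ± 7.0 RPKM), and the other 5 lid members had RF means of 84.8 (Psmd3) to 161 (Psmd6).

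The deposited reads were mapped to transcripts from which degenerate sequences had been removed, and the removed positions are not given in the sources used here. The share of CDS 30-base windows that occur in transcripts of another gene was computed for each member and is given as a description. Its part in the levels was not tested. It was 0 for 18 of the 29 measured members, 55.5% for Psmg3, 33.8% for Psme1, 32.8% for Psma2, 22.7% for Psmb1 and 12% for Psmd14, and under 10% for the rest. Over the 11 constitutive subunits with a share of 0, the log2 SD was 1.10 for RNAseq, 1.18 for RNAseq on the CDS and 0.571 for RF. RF then ranged 3.24-fold, from Psmd3 to Psmb4, and RNAseq 9.89-fold. This comparison was added after the values were seen.

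TE spread over 18.6-fold among the members. The highest was Psmc6, at 9.92, 10.8 and 8.24 in untreated cultures 1, 2 and 3, followed by Psma2 at 8.42, 8.79 and 6.76 and Psmb1 at 5.59, 7.66 and 5.22. Psmc6 and Psma2 overlapped. The lowest were Psmg4, a 20S assembly chaperone, at 0.692, 0.689 and 0.177, then Psmg3 at 0.805, 0.552 and 0.453 and Psma7 at 0.816, 0.741 and 0.616. The ranges of the lowest 3 overlapped, and the Psmg4 value of untreated culture 3 rests on 4 footprints.

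**Figure D2:**
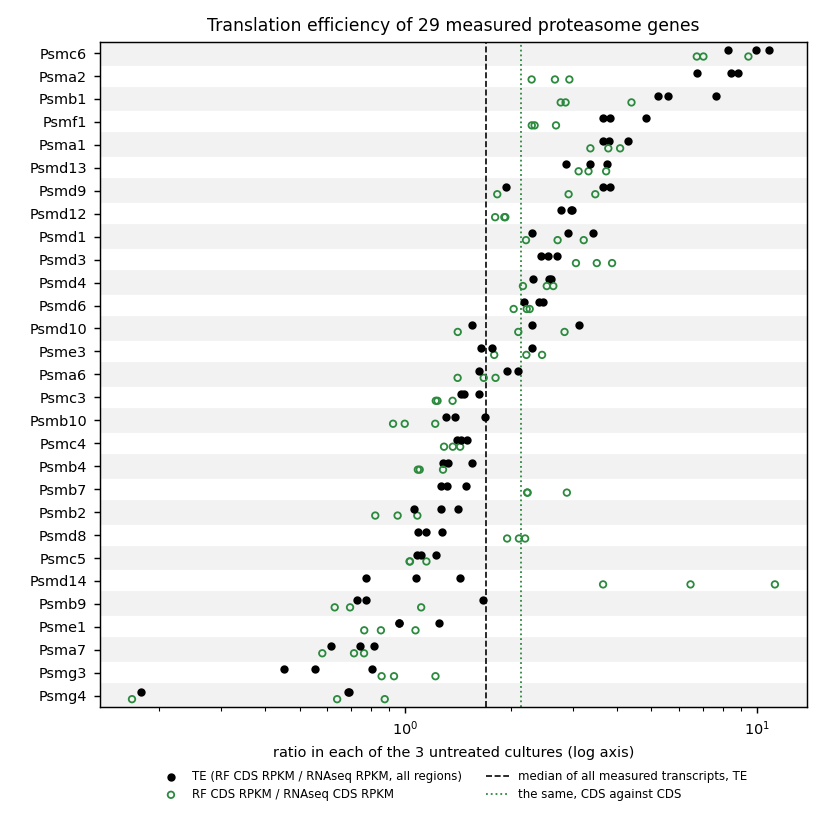
TE of the 29 measured members in each of the 3 untreated cultures (filled), sorted by mean, and the ratio of RF to RNAseq taken on the CDS in both assays (open green), on a log axis. Psmc6 is highest in both ratios, while Psma2, Psmb1 and Psmf1 move to the left and Psmd14 to the right when only CDS reads of RNAseq are used.

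Part of this order changed with the region over which RNAseq was taken. With CDS reads in both assays Psmc6 kept a ratio of 6.73, 9.44 and 7.03, the highest mean of the 29. Psma2, whose annotated 3′UTR is 2174 bases long, came to 2.66, 2.92 and 2.28, and Psmb1, with a 3′UTR of 1002 bases, to 2.85, 4.39 and 2.76. For these the CDS ratio was below TE in every untreated culture. The 3′UTR of Psma2 drew 0 RNAseq reads in untreated cultures 1, 2 and 3, while its unnamed region drew 84, 99 and 124. Psmd14 moved the other way, from a TE of 1.07, 0.774 and 1.43 to a CDS ratio of 6.46, 3.65 and 11.2, values which rest on 10, 15 and 8 RNAseq reads on the CDS. Psmg3 moved from a TE of 0.604 to a CDS ratio of 1.00, and Psma7, Psmb9, Psme1 and Psmb2 lay below it in that ratio. At the lower end Psma7 stayed at 0.763, 0.714 and 0.580 and Psmg4 at 0.873, 0.640 and 0.167.

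Of the constitutive catalytic subunits only Psmb7 was listed, and Psmb5 and Psmb6 were not analysed here. Psmb7 had 30.9, 30.2 and 33.3 RNAseq RPKM and a TE of 1.49, 1.32 and 1.26. Its inducible counterpart Psmb10 had 22.2, 21.7 and 26.2 RPKM, below Psmb7 in each culture, and a TE of 1.68, 1.38 and 1.31. On CDS reads alone the order of the levels turned, with 30.7, 32.5 and 34.4 RPKM for Psmb10 and 20.7, 13.8 and 18.9 for Psmb7. The CDS ratios were 1.22, 0.922 and 0.995 for Psmb10 and 2.22, 2.88 and 2.22 for Psmb7. Psmb9 had a TE of 1.66, 0.729 and 0.773. The third inducible subunit, Psmb8, stayed below the filter, with 35 to 46 RNAseq reads and 39 to 122 CDS footprints in untreated cultures and 27 to 37 reads and 25 to 48 footprints in KCl cultures.

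Activators, inhibitor and chaperones fell on both sides of the overall median TE of 1.69. Psme1, a subunit of the interferon-responsive PA28 activator, had an RNAseq level of 99.2 ± 12.8 RPKM and a TE of 1.05 ± 0.164 (SD, n = 3). Psme3, which forms the nuclear PA28 ring, had 49.8 ± 3.98 RPKM and a TE of 1.90 ± 0.342. Psmf1, known as the inhibitor PI31, had 14.3 ± 2.11 RPKM and a TE of 4.09 ± 0.637, and 2.43 ± 0.216 on the CDS. The 20S chaperones Psmg3 and Psmg4 had RNAseq levels of 26.5 ± 5.88 and 66.2 ± 3.23 RPKM and the lowest mean TE of the 29, which on the CDS held for Psmg4 alone. The 19S chaperones Psmd9 and Psmd10 had TE values of 3.13 ± 1.04 and 2.31 ± 0.788, above those of Psmg3 and Psmg4 in every untreated culture.

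Footprints of the members lay almost wholly in the CDS. Median footprint density in the 5′UTR was 0.0860 to 0.115 of that in the CDS per culture, against 0.237 to 0.367 over all measured transcripts. Some annotated 5′UTRs are about as short as a footprint or shorter, with 10 bases in Psmd4, 22 in Psmd10 and 36 in Psmb1. These had no 5′UTR footprint in any culture, nor had Psmd8 (56 bases) and Psmb7 (185 bases). The part of 5′UTR length in the lower median was not tested. In the 3′UTR 24 to 27 of the 29 members had no footprint in a given culture. A 5′UTR denser than the CDS was seen in 2 or 3 members per culture, while 10.5% to 21.7% of all measured transcripts had one.

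Psmd14 was the member with the densest 5′UTR relative to its CDS. In untreated cultures 1, 2 and 3 it had 189, 229 and 43 footprints on 312 bases of 5′UTR and 153, 111 and 43 on 930 bases of CDS, and in KCl cultures 4 and 5 it had 30 and 45 against 30 and 40. Per base, the 5′UTR held 3.68, 6.15 and 2.98 times the CDS density in untreated and 2.98 and 3.35 times in KCl cultures. RNAseq reads on the same 5′UTR were few, 15, 13 and 5 in untreated and 4 and 7 in KCl cultures. The CDS held 10, 15 and 8 in untreated and 7 and 12 in KCl cultures. Per base, RNAseq was thus also denser on the 5′UTR than on the CDS in every culture. The 3′UTR, of 299 bases, held 35 to 67 RNAseq reads. How far this uneven RNAseq coverage bears on the footprint ratio was not tested. The transcript holds 1 upstream ATG, and its start codon stands in ctgaacagaaatATGgacagactt, with A 3 bases before the ATG and G directly after it. Psmg3 also had a 5′UTR denser than its CDS in all 5 cultures, by 1.02 to 1.98 times, on 5 to 36 footprints. Among 3′UTRs, that of Psmd4, the ubiquitin receptor, held the most footprints, 116, 101 and 16 in untreated cultures. Of this 3′UTR 26.2% is CDS in another annotated transcript of Psmd4.

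**Figure D3:**
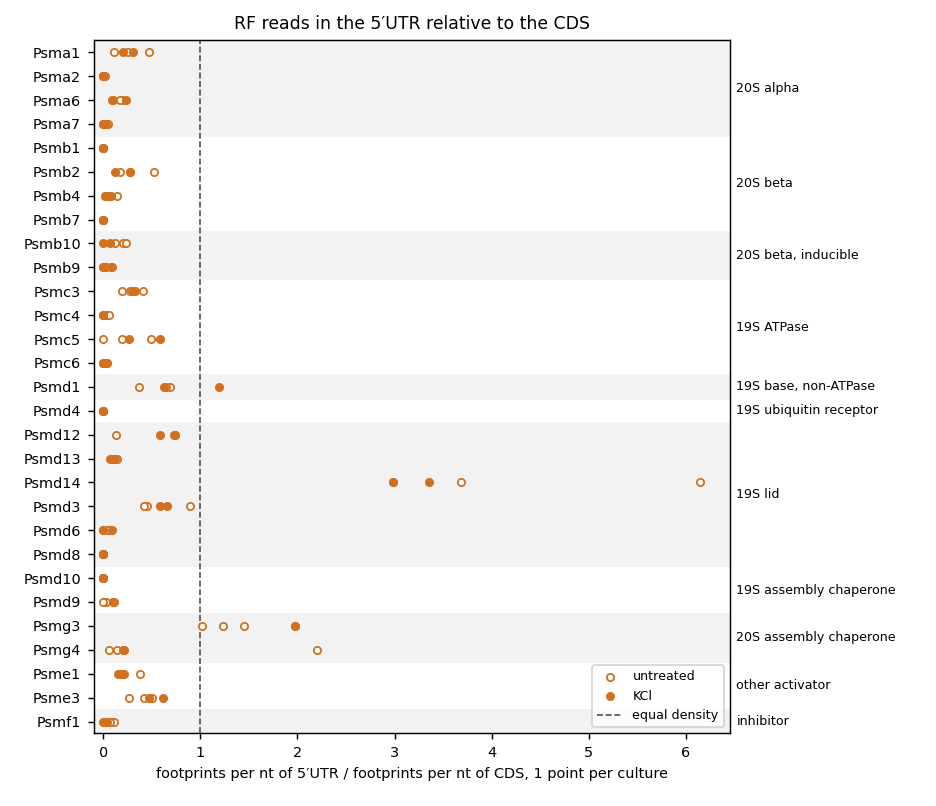
Footprints per base of 5′UTR divided by footprints per base of CDS for each measured member, 1 point per culture (open, untreated; filled, KCl), with a dashed line at equal density. Psmd14 stands at 2.98 to 6.15 in all 5 cultures, Psmg3 at 1.02 to 1.98, and Psmd1 and Psmg4 cross the line in 1 culture each.

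KCl changed few proteasome mRNAs. In RNAseq, 3 of 29 members (10.3%) passed the edgeR quasi-likelihood test at an adjusted p under 0.05, 1 higher and 2 lower, where 33.0% of all 7262 transcripts did, 17.9% higher and 15.1% lower. The median log2 fold change (KCl over untreated) was -0.11, against 0.00 over all transcripts, and the median absolute change was 0.18 against 0.29. A change of at least 0.5 on the log2 scale, either way, was found in 2 of 29 members and in 29.5% of all transcripts. By unadjusted p under 0.05 there were 5 members, beside 41.8% of all transcripts. These counts are a description of the members beside the background, without a test.

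In RF, 8 of 29 members (27.6%) passed, 5 higher and 3 lower, beside 40.9% of all transcripts, 20.8% higher and 20.1% lower. By unadjusted p under 0.05 there were 12, beside 48.6% of all. The median log2 fold change was 0.06 against -0.01 over all transcripts, and the median absolute change 0.22 against 0.31. A change of at least 0.5 was seen in 2 members and in 31.8% of all transcripts. The 5 members that rose were the beta subunits Psmb1, Psmb2 and Psmb4 and the ATPases Psmc4 and Psmc6, and those that fell were Psma6, Psmd6 and Psmg3. Small changes like these depend on the scaling of the libraries. With library totals in place of TMM factors the median of all transcripts moved to -0.14 in RF and -0.10 in RNAseq, and calls came to 2 higher and 5 lower in RF and 0 higher and 5 lower in RNAseq. None of the called values turned its direction under any setting tried.

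**Figure D4:**
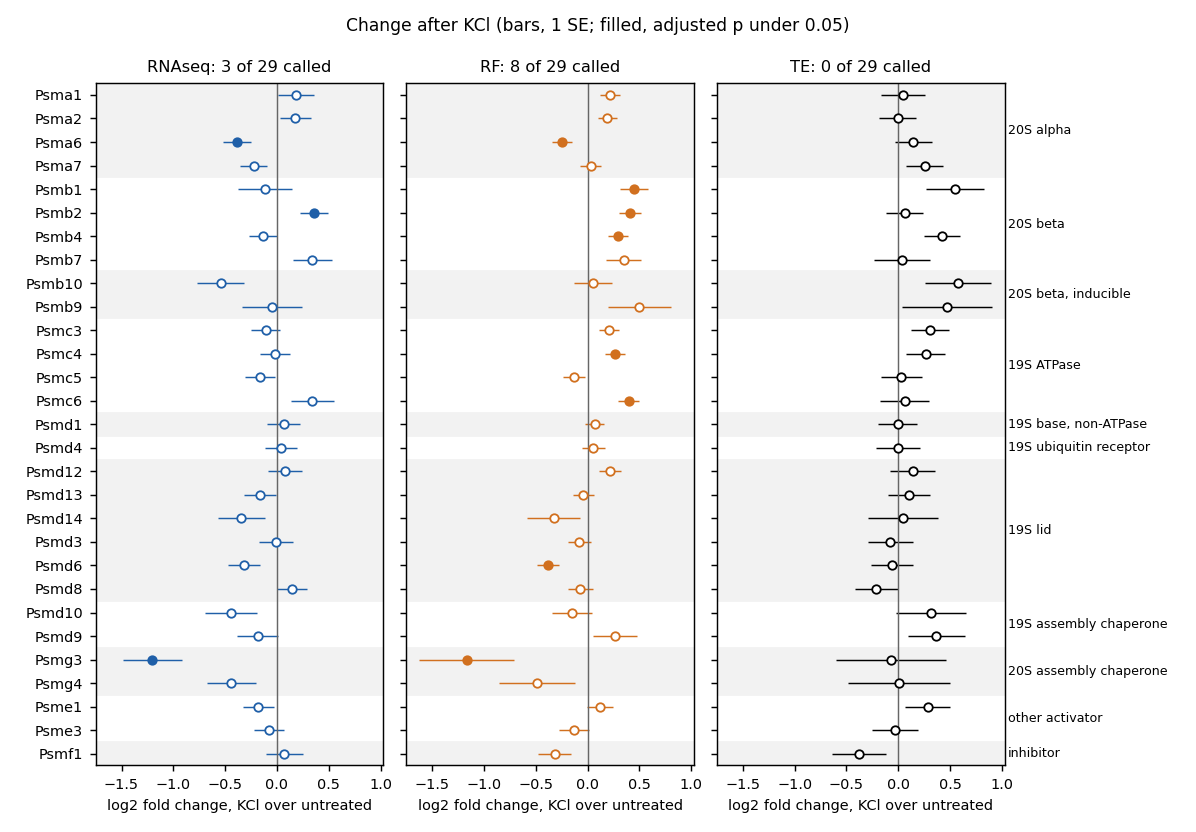
Log2 fold change, KCl over untreated, of the 29 measured members in RNAseq, RF and TE, with 1 approximate SE as bars and filled symbols for an adjusted p under 0.05 (edgeR quasi-likelihood test over 7262 transcripts). Filled symbols number 3, 8 and 0, and Psmg3 lies farthest from 0 in RNAseq and RF.

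In the beta ring 3 of the 4 measured constitutive subunits rose in RF. Normalized RF values of Psmb1 were 71.3, 81.5 and 80.5 CPM in untreated and 100 and 109 in KCl cultures, those of Psmb2 226, 197 and 183 against 288 and 257, and those of Psmb4 306, 271 and 303 against 343 and 370. Both KCl values lay above all untreated values for each. Here and below, such separation describes the same values as the tests and adds no support to them. Its share over all transcripts is not given. Log2 fold changes were 0.45 (SE 0.14, adjusted p = 0.00959) for Psmb1, 0.41 (SE 0.11, adjusted p = 0.00294) for Psmb2 and 0.29 (SE 0.09, adjusted p = 0.0129) for Psmb4. The catalytic Psmb7 had a value of 0.35 (SE 0.17), which did not pass (adjusted p = 0.0957). Without untreated culture 1 the value of Psmb1 was 0.37 and did not pass (adjusted p = 0.0514). With library totals the values of Psmb1 and Psmb4 were 0.31 and 0.16 and did not pass (adjusted p = 0.0629 and 0.170), nor did they without KCl culture 5. The Psmb2 call was lost without KCl culture 4 (adjusted p = 0.0733).

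In RNAseq Psmb2 was the 1 beta subunit that passed. Psmb2 had 216, 211 and 224 RNAseq CPM in untreated and 254 and 303 in KCl cultures, a rise of 0.36 on the log2 scale (SE 0.13, adjusted p = 0.0347). It was 0.23 without KCl culture 5 (adjusted p = 0.423), and the call was also lost with library totals (adjusted p = 0.121) and without untreated culture 2 or 3. Psmb1 had 29.6, 24.6 and 34.3 against 18.1 and 35.9 CPM, with the KCl cultures on either side of the untreated ones. Psmb4 had 328, 299 and 268 against 259 and 284, which overlapped. For Psmb1 and Psmb4 the RNAseq estimates were -0.11 (SE 0.26) and -0.14 (SE 0.13), with adjusted p-values of 0.772 and 0.475. Their TE differences, 0.55 (SE 0.28) and 0.43 (SE 0.17), had unadjusted p-values under 0.05 but adjusted ones of 0.291 and 0.142.

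Of the ATPases Psmc6 and Psmc4 rose in RF. Psmc6 had 185, 202 and 189 CPM in untreated and 259 and 250 in KCl cultures, without overlap (0.40, SE 0.10, adjusted p = 0.00225). Psmc4 had 229, 215 and 238 against 247 and 291, a smaller step also without overlap (0.26, SE 0.10, adjusted p = 0.0370). Without KCl culture 5 the value for Psmc4 was 0.13 (adjusted p = 0.569), and the call was also lost with DESeq2 (adjusted p = 0.0946), with library totals (0.13, adjusted p = 0.303) and without untreated culture 1. In RNAseq Psmc6 had 33.8, 33.9 and 40.1 against 49.7 and 41.4 CPM, and its estimate of 0.34 (SE 0.21) did not pass (adjusted p = 0.215). Psmc3 and Psmc5 were at 0.21 (SE 0.10, adjusted p = 0.0802) and -0.13 (SE 0.11, adjusted p = 0.339) in RF. A Psmc3 transcript other than the one representing the gene, ENSMUST00000111441, passed in RF (0.27, SE 0.10, adjusted p = 0.0286). As such transcripts share most of their reads, this is no separate measurement.

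**Figure D5:**
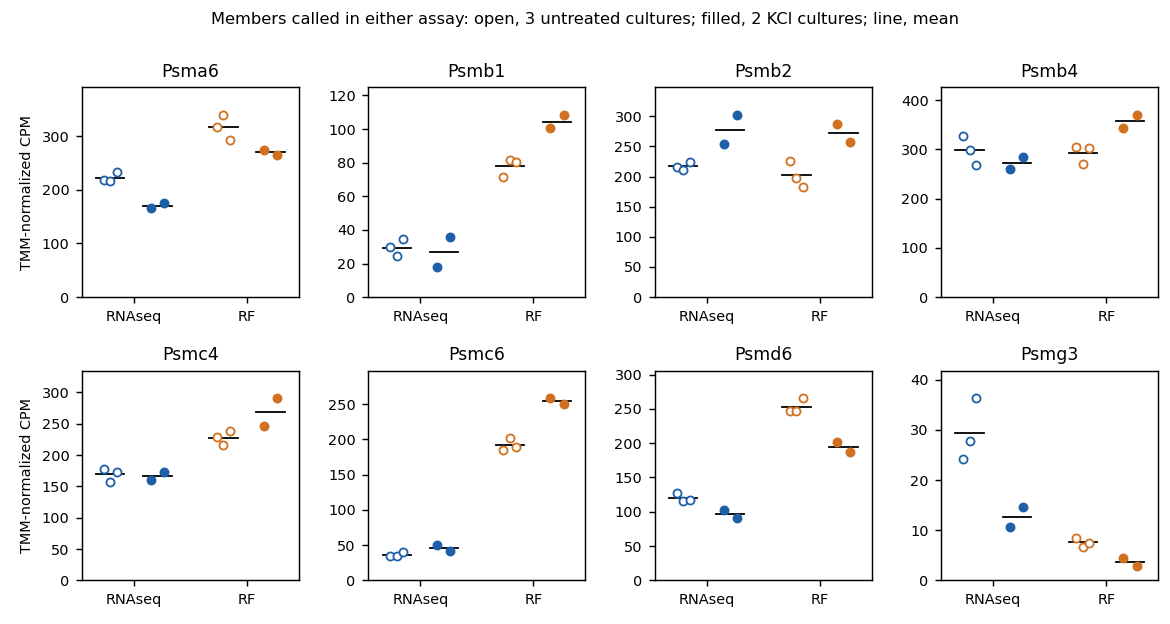
TMM-normalized CPM of the 8 members called in RNAseq or RF, 1 point per culture (open, 3 untreated; filled, 2 KCl), with RNAseq in blue, RF in orange and the mean as a line, each axis starting at 0. Psmb1, Psmb2, Psmb4, Psmc4 and Psmc6 have both KCl values above the untreated ones in RF, and Psma6, Psmd6 and Psmg3 below.

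Members that fell belonged to the alpha ring, the lid and the chaperones. Psma6 had 219, 217 and 232 RNAseq CPM in untreated and 165 and 176 in KCl cultures (-0.38, SE 0.14, adjusted p = 0.0284), and 318, 340 and 292 against 275 and 265 in RF (-0.24, SE 0.10, adjusted p = 0.0421). It was below in KCl in both assays, but the call was lost in 6 of 12 alternatives in RNAseq and in 7 of 11 in RF, among them DESeq2 in RF (adjusted p = 0.115). The other 3 measured alpha subunits did not pass in either assay, with RF estimates of 0.03 (Psma7) to 0.22 (Psma1). Psmd6, a lid subunit, fell in RF from 247, 246 and 266 to 201 and 187 CPM (-0.38, SE 0.10, adjusted p = 0.00356), and its RNAseq estimate of -0.32 (SE 0.15) did not pass (adjusted p = 0.116). The Psmd6 call in RF was lost without KCl culture 5, also at an adjusted p of 0.116. The remaining 5 lid subunits did not pass, and their RF estimates ran from -0.33 (Psmd14) to 0.22 (Psmd12).

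The assembly chaperone Psmg3 had the largest change among the members. Its RNAseq values were 24.1, 27.7 and 36.4 CPM in untreated and 10.7 and 14.7 in KCl cultures (-1.20, SE 0.28, adjusted p = 0.000927). RF values were 8.48, 6.70 and 7.49 against 4.45 and 2.78 CPM (-1.17, SE 0.46, adjusted p = 0.0429). Both fell without overlap. In RF the KCl cultures held 5 and 6 footprints on the CDS, of which 55.5% of the 30-base windows occur in transcripts of another gene. The RF call was lost in 7 of 11 alternatives, among them DESeq2 (adjusted p = 0.199), and without KCl culture 5 the value was -0.77 (adjusted p = 0.457). The RNAseq call was lost on CDS reads alone (-1.14, adjusted p = 0.0911) and held in the other 11 alternatives. Psmg4, the other 20S chaperone, had 41.6, 39.8 and 37.2 against 20.1 and 37.7 RNAseq CPM, an estimate of -0.44 (SE 0.24) that did not pass (adjusted p = 0.154). Its value of 20.1 came from culture 4 alone.

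Inducible subunits, activators and inhibitor did not pass in any assay. Psmb10 had 37.0, 35.9 and 42.9 RNAseq CPM in untreated and 23.8 and 28.95 in KCl cultures (-0.54, SE 0.23, adjusted p = 0.0614), and 40.9, 32.7 and 38.4 against 40.9 and 37.1 in RF (0.06, SE 0.18, adjusted p = 0.835). The groups were separate in RNAseq and overlapped in RF. Psmb9 had an RF estimate of 0.50 with an SE of 0.31. Psme1 and Psme3 had RNAseq estimates of -0.18 (SE 0.15) and -0.07 (SE 0.14) and RF estimates of 0.12 (SE 0.13) and -0.13 (SE 0.14). Psmf1 had 64.9, 60.3 and 63.7 against 48.9 and 51.5 RF CPM (-0.32, SE 0.16, adjusted p = 0.110), beside an RNAseq estimate of 0.07 (SE 0.18). Of the 19S chaperones, Psmd10 was at -0.45 (SE 0.25, adjusted p = 0.177) in RNAseq, and its second transcript, ENSMUST00000112978, passed at -0.71 (SE 0.27, adjusted p = 0.0369).

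TE was not called for any of the 29 members by edgeR, where 5.80% of all transcripts were called, 1.53% higher and 4.27% lower. By unadjusted p under 0.05 there were 2, Psmb1 and Psmb4, beside 16.9% of all transcripts. DESeq2 called 0 by adjusted p and had 1 by unadjusted p. Estimates ran from -0.38 (SE 0.26, Psmf1) to 0.58 (SE 0.32, Psmb10), with a median of 0.06 against 0.01 over all transcripts and a median absolute value of 0.10 against 0.24. Within a culture the normalized TE of Psmb4 was 0.933, 0.904 and 1.13 in untreated and 1.32 and 1.31 in KCl cultures, and that of Psmb10 1.11, 0.911 and 0.894 against 1.72 and 1.28. The groups did not overlap for either, and neither passed over all transcripts. SEs of the TE estimates were 0.17 to 0.53.

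The 8 members outside the filter were of different kinds. Psma3, Psma4, Psma5 and Psmd11 had 0 CDS reads in all 5 RNAseq and all 5 RF libraries, and the shares of their CDS windows found in another gene were 91.7%, 60.1%, 89.3% and 51.3%. Their RNAseq reads, all outside the CDS, numbered 38 to 56 for Psma3, 49 to 80 for Psma4, 0 to 1 for Psma5 and 182 to 218 for Psmd11. Psmc1 had 63 to 84 RNAseq reads and 9 to 35 CDS footprints, with 49.7% of its CDS windows shared. No level can be given for these 5. Psma8 and Psmb11, the forms of the testis and the thymic cortex, had 0 to 3 RNAseq reads and 0 to 6 and 0 to 1 CDS footprints, with no CDS window shared. In the fit on transcripts with at least 1 read in any library, Psmc1 passed in RF at 1.10 (SE 0.36, adjusted p = 0.0120) and the other members outside the filter did not pass in RNAseq, RF or TE, where they could be fitted. The footprints of Psmc1 were 35, 19 and 16 in untreated and 9 and 35 in KCl cultures, or 6.06, 3.86 and 15.0 against 8.00 and 16.2 normalized CPM, so that the groups overlapped. Psmb3, Psmb5, Psmb6, Psmc2, Psmd2, Psmd5, Psmd7, Psme2, Psme4, Psmg1 and Psmg2 were not analysed here.

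Of the associated and shuttle factors, 12 of the 23 on the list were measured. In this group 4 were higher in RNAseq and none lower, and 4 were higher and 1 lower in RF, calls close in share to the 33.0% and 40.9% of all transcripts. Akirin2, which helps import proteasomes into the nucleus, rose by 0.86 (SE 0.15) in RNAseq and 0.48 (SE 0.15) in RF. Txnl1, a thioredoxin bound to the 19S particle, rose by 0.51 (SE 0.15) and 0.67 (SE 0.10). Rad23b, a shuttle for ubiquitinated substrates, and Ubqln4 rose in RNAseq, by 0.54 (SE 0.13) and 0.41 (SE 0.16), and the related shuttles Ubqln1 and Ubqln2 in RF, by 0.47 (SE 0.11) and 0.63 (SE 0.11). Nploc4, a cofactor of the p97 segregase, fell in RF (-0.84, SE 0.15). Pomp, the chaperone of 20S maturation, and Sem1, a small lid subunit with no Psm symbol, did not pass in any assay.

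Of the genes listed for control of proteasome genes, 3 of 4 were measured. In RNAseq 1 was higher, and in RF 2 were higher and 1 lower. Over all transcripts 33.0% were called in RNAseq and 40.9% in RF, and lists this short are given as a description. Nfe2l1, known for raising subunit transcription when the proteasome is inhibited, fell in RF (-0.32, SE 0.11, adjusted p = 0.0209), beside an RNAseq estimate of 0.10 (SE 0.13). Nfe2l2 rose in RF (0.34, SE 0.10, adjusted p = 0.00749), and Stat3 rose in RNAseq (0.36, SE 0.13) and RF (0.57, SE 0.08). Uba1, the main ubiquitin-activating enzyme, rose in RF by 0.39 (SE 0.08), the only call among the 2 measured genes for ubiquitin and E1. Of the class I antigen presentation genes, which act downstream of the inducible subunits, 5 of 11 were measured. Among these 1 was higher and 1 lower in RNAseq, and 2 were higher and 1 lower in RF. Irf1, an interferon-responsive factor, fell in RNAseq (-1.72, SE 0.26) and RF (-1.90, SE 0.27). Calr rose in RNAseq, and Tapbp and Pdia3, which load peptides, rose in RF by 0.32 (SE 0.12) and 0.20 (SE 0.08). None of the genes named from these lists was called in TE.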

How the data were processed

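RNAseq and RF libraries of 5 cultures (3 untreated, 2 KCl) were analysed. A further KCl replicate was removed by the authors for its small library. Per the study's methods and the submitters' processing notes, reads were trimmed with Trimmomatic 0.32, freed of rRNA with STAR 2.3.1z8 and mapped with Bowtie2 2.2.2 to a mouse transcriptome (mm10) without degenerate sequences, keeping multi-mapped reads. The authors deposited raw counts per transcript region, obtained with bedtools 2.20.1. Region letters were read as 5′UTR, CDS and 3′UTR, and 1 region is unnamed. Of 22534 transcripts, 22172 (98.4%) matched GENCODE (GRCm38), which gave names, lengths and sequences.

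Counts were fitted with edgeR 4.0.16 in R 4.3.3 (robust quasi-likelihood test, TMM within each assay) over 7262 transcripts, with Benjamini-Hochberg adjustment over all of them. For TE the assay-by-treatment term was tested with a block for culture, because both assays used portions of 1 lysate. SE is the absolute log2 fold change over the square root of F, an approximation. RPKM used library totals. Members were named by the largest changes in each direction among calls, the 3 highest and lowest levels and TE, and the catalytic, activator, inhibitor and 20S chaperone groups. Other members are named where a value bears on a group. The members and lists were chosen with earlier results of these data known. Fits were tested on simulated counts. DESeq2 1.42.0, other scalings and filters, CDS reads only and leaving out each culture were tried. One gene of the pathway lists is not reported here.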

Additional observations from a re-analysis of the deposited data

How the results depend on the processing

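Calls among the 29 measured members depended on the settings in number and in the balance of higher and lower. No value called in the main fit reversed. Values near 0 that were not called could change sign. With library totals the median RF change of the members moved from 0.06 to -0.08. RNAseq calls numbered 3, and came to 5 with library totals, to 1 with CDS reads only (Psmb2), and to 1 to 4 when a culture was left out (1, Psmg3, without untreated culture 3). RF calls numbered 8, and came to 5 with DESeq2 and to 2 to 8 when a culture was left out: 4 without untreated culture 1, 5 without KCl culture 4, and 2, Psmb2 and Psmc6, without KCl culture 5. With weaker filters on low counts RF calls came to 11 (10 higher, 1 lower; edgeR's filterByExpr) and to 9 (8 higher, 1 lower; at least 1 read in any library). TE calls were 0 under every setting tried, also in the fit with no replicate block (0), which leaves out the pairing of assays within a culture, and with TMM over all 10 libraries, which was added after the data were seen. Untreated and KCl cultures share no number, so that the treatment itself could not be paired. Median RNAseq RPKM of the members moved from 45.2 to 47.6 on the CDS and was 44.3 to 46.0 without single cultures. Median RF RPKM moved from 103 to 94.0 over members with at least 1 read in any library and was 101 to 104 without single cultures. Median TE moved from 1.89 to 2.11 with RNAseq on the CDS and was 1.71 to 1.97 without single cultures. Psmg3 rests on 5 to 49 CDS footprints per RF library, and with 2 KCl cultures no call has a replicate beyond this pair.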
